A study of Rattus norvegicus with 6 samples.

Results

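The genes described here were those whose level was far lower in HFD-sitagliptin replicate 1 than in any other array of rat pup intestine. They were selected on the measured values themselves: a gene was taken when its log2 expression value in that array was at least 2 below the lowest value of the other 5 arrays. 138 of 18166 genes met this rule, a background of 0.76%. Because the selection used these values, the gaps below are a description and carry no test.

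Intestinal RNA of 3 pups from HFD-sitagliptin dams and 3 pups from HFD dams was hybridised to Affymetrix Rat Gene 2.0 ST arrays, 1 for each pup, when the pups were 3 weeks old. All dams were Sprague Dawley rats fed a high-fat diet (HFD) from before mating through lactation, and the HFD-sitagliptin dams also received oral sitagliptin, an inhibitor of the peptidase DPP-4, during pregnancy and lactation. The pups were male, and they were not dosed themselves. The stretch of intestine taken from each pup is not named in the sources used here, and no group of pups from dams on normal diet was analysed here.

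The small intestine is lined by villi whose absorptive cells, the enterocytes, carry a brush border of enzymes and transporters that finish the digestion of sugars, peptides and fats. Paneth cells at the base of the small intestinal crypts secrete antimicrobial alpha-defensins. The colon has neither villi nor, in rodents, Paneth cells, and its surface cells mainly absorb salt and water. In a bulk sample of tissue, fewer cells of a type and less RNA per cell cannot be told apart.

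Across the 138 genes, the median log2 value was 4.88 in HFD-sitagliptin replicate 1. It was 8.87 and 8.94 in HFD-sitagliptin replicates 2 and 3, and 8.86, 9.18 and 9.16 in HFD replicates 1, 2 and 3. The median of all genes lay between 5.23 and 5.30 in every array, so the normalized values of that array were not lower as a whole. The gap to the lowest other array ranged from 2.01 to 8.66 with a median of 2.98. It was at least 4 for 36 genes, between 3 and 4 for 31 genes and between 2 and 3 for 71 genes. The same rule applied to each of the other arrays in turn found 3 genes in HFD-sitagliptin replicate 2, 5 genes in replicate 3 and 0 genes in each HFD array.

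**Figure D1:**
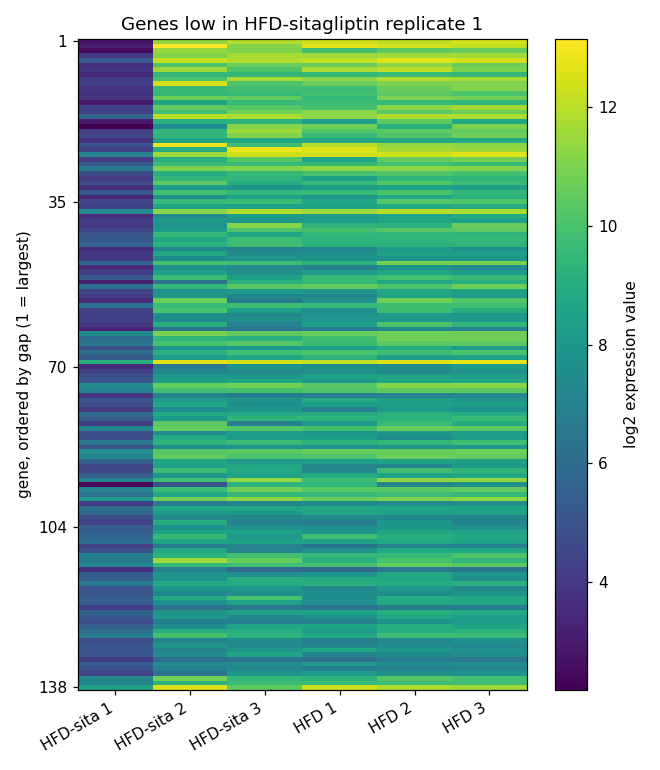
Log2 expression values of the 138 genes (rows, ordered by the gap) in the 6 arrays (columns), where the colour gives the value. The column of HFD-sitagliptin replicate 1 has a median of 4.88, and the other 5 columns have medians between 8.86 and 9.18.

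These were abundant transcripts in the other pups. Their mean over the other 5 arrays ranged from 6.41 to 12.54, and the median of 8.98 lay at the 95.9th percentile of all genes. Of the 182 genes in the top 1% by that mean, 26 met the rule. Olfactory receptor genes, 1186 of which were measured, served as a gauge of the level of genes that gut tissue mostly does not use. Their 95th percentile in HFD-sitagliptin replicate 1 was 4.41. There, 53 of the 138 genes lay at or below that level and 85 lay above it. Some of the 85 were only just above it, such as *Mme* at 4.49. A value just above the gauge does not show expression, so these counts do not separate reduced from absent genes. No member lay at or below this gauge in all of the other arrays. The rule favours such high levels, because every other array had to lie at least 2 above HFD-sitagliptin replicate 1.

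The widest gap belonged to *Si*, which encodes sucrase-isomaltase, the brush border enzyme that splits sucrose. *Si* was at 2.72 in HFD-sitagliptin replicate 1, at 11.39 and 11.94 in replicates 2 and 3, and at 12.39, 12.07 and 12.49 in the HFD arrays. Among the strongest signals of 5 pups, it was thus at the level of an unused gene in the sixth. *Dpp4*, which encodes the peptidase that sitagliptin inhibits, was at 7.34 in HFD-sitagliptin replicate 1. The other HFD-sitagliptin arrays had 10.89 and 10.45, and the HFD arrays had 10.59, 10.73 and 10.79. *Dpp4* was therefore low in the same array but remained well above the olfactory receptor gauge, and the groups overlapped in the other 5 arrays.

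The sequence before the start of *Si* is shown because this gene had the widest gap. It covers 250 bases of the minus strand of chr2:159884903-159885152 (RefSeq, build GRCr8). The capitals mark matches to TATAAA, on both strands and overlapping each other, and to the Cdx motif TTTATNG on the minus strand of the gene. Cdx factors are homeobox regulators of intestinal genes.
Si: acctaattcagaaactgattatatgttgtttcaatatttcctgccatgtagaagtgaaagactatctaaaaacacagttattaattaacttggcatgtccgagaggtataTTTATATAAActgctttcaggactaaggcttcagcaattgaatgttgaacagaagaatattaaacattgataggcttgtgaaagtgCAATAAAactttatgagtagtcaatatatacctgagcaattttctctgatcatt

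Among the 10 widest gaps were further genes of the enterocyte. *Mttp*, which loads lipid onto nascent lipoproteins, was at 4.005 in HFD-sitagliptin replicate 1, at 11.08 and 11.73 in the other HFD-sitagliptin arrays, and at 11.54, 11.62 and 11.65 in the HFD arrays. *Anpep*, aminopeptidase N of the brush border, was at 5.27 against 12.14 and 11.84 within its group and 12.11, 12.63 and 12.41 in the HFD group. Both genes separated 1 array from 5 that lay within 0.79 of each other. *Otc*, the mitochondrial enzyme that makes citrulline, was at 3.46 in HFD-sitagliptin replicate 1, at 9.45 and 9.43 in replicates 2 and 3, and at 9.55, 9.64 and 9.51 in the HFD arrays. With a range of 0.21 over the other 5 arrays, *Otc* was the steadiest of all 138 genes. *Cyp17a1*, a steroid hydroxylase, had 3.76 against 10.003, 10.67, 10.67, 11.26 and 10.71, and *Lgals2*, a galectin, had 3.96 against 11.60, 10.18, 11.75, 12.05 and 10.98. *Tm4sf5*, a tetraspan membrane protein, had 4.18 against 9.99, 11.74, 11.20, 11.86 and 11.69. In each of these lists the HFD-sitagliptin replicates 2 and 3 come first and the HFD replicates 1 to 3 follow. For *2010106E10Rikl*, whose role is not given here, the values were 2.49 against 11.41, 11.07, 9.82, 10.45 and 10.62.

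**Figure D2:**
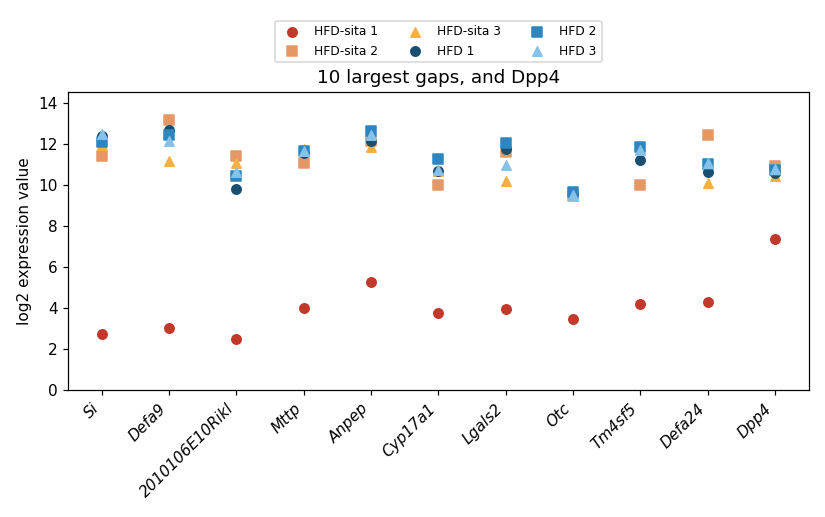
Log2 expression values (vertical axis) of the 10 genes with the widest gap and of *Dpp4*, with 1 point per array. The 5 other arrays lie between 9.43 and 13.15 for all of these genes, and HFD-sitagliptin replicate 1 lies between 2.49 and 7.34.

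Alpha-defensins, the antimicrobial peptides of Paneth cells, were also among the widest gaps. *Defa9* was at 3.03 in HFD-sitagliptin replicate 1, at 13.15 and 11.18 in replicates 2 and 3, and at 12.69, 12.42 and 12.14 in the HFD arrays. *Defa24* was at 4.29, against 12.45 and 10.09 and against 10.64, 11.01 and 11.04. Both were highest in HFD-sitagliptin replicate 2, and their groups overlapped outside the low array. *Defa6* (4.9996 against at least 9.75) and *Defa8* (8.43 against at least 10.44) also met the rule. *Defa7* (5.42 against 4.84 to 5.75), *Defa5* (2.85 against 2.68 to 3.43) and *Defa11* (2.65 against 2.33 to 2.95) lay within the range of the other arrays, in which they were low too. Some rat alpha-defensins are close copies of each other. A probe set may thus read more than 1 of them, and the values of single genes are uncertain. *Defa6* and *Defa8*, and *Defa8* and *Defa9*, are neighbours on chromosome 16.

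By role, lipid genes were the most numerous. In the list of fat absorption and chylomicron assembly, 13 of 26 measured genes met the rule, beside 0.76% of all genes. After *Mttp*, the widest gaps of that list belonged to *Apoc2*, an apolipoprotein that activates lipoprotein lipase (3.91 against 9.64 to 11.06), *Apob*, the structural protein of chylomicrons (5.73 against 11.25 to 12.03), and *Soat2*, which esterifies cholesterol (3.76 against 8.57 to 8.89). *Creb3l3*, a transcription factor of lipid metabolism, was at 4.71 against 9.04 to 10.18. The other members of the list were *Apoa4*, *Pla2g12b*, *Dgat1*, *Fabp2*, *Cideb*, *Mogat2*, *Acsl5* and *Gpat3*. *Fabp2*, the intestinal fatty acid binding protein, kept the highest level of all 138 genes in HFD-sitagliptin replicate 1, 9.10 against 12.09 to 12.79. *Fabp1*, a related binding protein outside the rule, was at 10.48 against 12.14 to 12.78. *Scarb1*, a lipoprotein receptor, and *Slc27a2*, an acyl-CoA synthetase, lay within the range of the other arrays.

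Protein digestion and amino acid uptake formed another large group. Of 12 brush border and digestive peptidases, 7 met the rule, namely *Anpep*, *Mme*, *Xpnpep2*, *Dpp4*, *Cndp1*, *Naaladl1* and *Ace*. *Mme*, the endopeptidase neprilysin, was at 4.49 against 9.37 to 11.02. *Mep1a*, the alpha subunit of the endopeptidase meprin, was at 9.66, inside the 8.84 to 10.15 of the other arrays. Of 12 amino acid and peptide transporters, 8 met the rule. *Slc15a1*, the proton-coupled peptide transporter, was at 3.86 against 9.55 to 11.05, and *Slc3a1* and *Slc7a9*, the 2 subunits of the cystine and dibasic amino acid transporter, were at 4.09 against 8.39 to 9.45 and at 3.66 against 7.87 to 8.45. *Slc6a19*, which takes up neutral amino acids, was at 4.27 against 7.42 to 9.99.

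Sugar genes were split by a second array. Of 12 genes of sugar transport and metabolism, 5 met the rule: *Slc5a11*, *Slc5a1*, *Slc5a12*, *Slc2a5* and *Khk*. The count includes *Slc5a12*, although it encodes a lactate transporter. *Slc5a1*, the sodium-coupled glucose transporter of the brush border, was at 6.21 against 9.49 to 10.75, and *Slc2a5*, the fructose transporter, was at 4.16 against 7.32 to 8.11. *Lct*, which encodes lactase, was at 3.75 in HFD-sitagliptin replicate 1, at 5.74 and 10.07 in replicates 2 and 3, and at 9.54, 10.43 and 10.71 in the HFD arrays. *Lct* was thus the nearest gene outside the rule, with a gap of 1.99, because HFD-sitagliptin replicate 2 was low as well. The glucose transporter *Slc2a2* of the basolateral membrane had the same order, with 4.77 and 6.24 in these arrays and 9.41 to 10.24 in the others. Next outside the rule were *Lpgat1* and *Slc25a15*, both with a gap of 1.97. Just inside were *Defa8* at 2.01 and *Sec23a* and *Slc51a* at 2.02.

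Of 9 genes of arginine, citrulline and proline synthesis, *Otc*, *Cps1* and *Arg2* met the rule. *Arg2*, an arginase, had a narrower gap than the median member, with 5.42 against 8.18 to 9.59. *Cps1*, which makes carbamoyl phosphate for the reaction of *Otc*, was at 4.34 in HFD-sitagliptin replicate 1, at 9.88 and 10.85 in replicates 2 and 3, and at 11.19, 10.35 and 10.82 in the HFD arrays. *Ass1*, which uses citrulline to make the precursor of arginine, stood on the other side, with 6.28 against 4.31 to 5.06. The list of vitamin, nucleoside and mineral uptake had 5 of 24 genes in the rule. They were *Rbp2*, the retinol binding protein of enterocytes (7.05 against 11.53 to 12.61), *Slc23a1*, a vitamin C transporter (4.19 against 7.99 to 8.67), *Cubn*, the receptor of the intrinsic factor and vitamin B12 complex (3.91 against 7.04 to 10.08), and the nucleoside transporters *Slc28a1* and *Slc28a2*. *Trpv6*, an apical calcium channel, was higher in that array, at 6.27 against 3.91 to 4.09.

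The remaining role lists held fewer members. Of 6 genes of sphingolipid digestion and ectophosphatases, *Alpi*, the intestinal alkaline phosphatase (4.16 against 9.46 to 11.60), and *Asah2*, the neutral ceramidase (4.57 against 8.23 to 10.42), met the rule. Of 7 genes of bile acid handling, *Slc51a*, a subunit of the basolateral bile acid exporter, was the only member. Of 35 genes of drug and steroid metabolism, 4 met the rule, namely *Cyp2b1*, *Cyp3a18*, *Ces2a* and *Maob*. *Cyp2b1* (2.95 against 8.35 to 10.44) and *Gsta5*, a glutathione transferase (2.19 against 7.51 to 11.13), belong to families of close copies, so their values are uncertain too. Of 14 intestinal transcription factors, *Gata5* (4.80 against 7.65 to 8.78) and *Hnf4g* (7.57 against 10.26 to 10.75) met the rule. *Cdx2*, which is expressed along the small and large intestine, was at 9.55 against 8.84 to 9.09, and *Hnf4a* was at 8.54 against 8.65 to 9.11. *Gata4*, a factor of the proximal small intestine, missed the rule with 4.81 against 6.22 to 8.28. No gene of 10 for microvillus structure met the rule, although 8 of them lay below all other arrays. *Vil1*, the actin bundler villin, was at 9.43 against 11.01 to 11.31.

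Cell type marker lists were then read in the same arrays, and their counts stand beside a background in which 21.2% of all genes lay below every other array in HFD-sitagliptin replicate 1 and 25.9% lay above. Of 12 small intestinal enterocyte markers, 12 lay below all other arrays and 10 met the rule. Their mean was 5.34 in HFD-sitagliptin replicate 1, 10.12 and 11.10 in replicates 2 and 3, and 10.77, 11.19 and 11.39 in the HFD arrays. This list shares genes with the role lists and was chosen with earlier results of these data known, so its count is not separate evidence. The 14 pan-epithelial markers had a mean of 9.99 against 10.01 to 10.24, and 0 of them met the rule. *Epcam*, the epithelial adhesion molecule, was at 11.25 against 10.97 to 11.32, and *Lgals4*, an epithelial galectin, was at 12.10 against 11.89 to 12.20. Goblet cell markers had a mean of 10.32 against 9.70 to 10.86, with *Zg16* at 12.33, *Agr2* at 12.26 and *Clca1* at 12.28. The means of these lists lay within or close to the range of the other arrays, although 4 pan-epithelial genes lay below all of them and 6 above.

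Of 12 measured colonocyte and hindgut markers, 5 lay above all other arrays and 1 lay below. *Car1*, the carbonic anhydrase typical of the colon surface, was at 12.41 in HFD-sitagliptin replicate 1, at 4.04 and 3.58 in replicates 2 and 3, and at 3.56, 3.59 and 3.41 in the HFD arrays. *Hoxa13*, a homeobox gene of the hindgut, was at 6.53 against 3.66 and 3.70 and against 3.35, 3.64 and 3.66. For both genes 1 array stood apart from 5. *Scnn1b*, a subunit of the epithelial sodium channel, was at 5.20 against 2.88 to 3.87, *Retnlb*, a goblet cell product of the large bowel, was at 6.04 against 3.41 to 4.18, and *Slc26a3*, a chloride exchanger, was at 10.77 against 9.57 to 10.30. The list was not uniform. *Car4*, another carbonic anhydrase, was at 9.27, within the 7.30 to 9.57 of the other arrays, and *Aqp8* and *Scnn1g* lay within their range too. *Hoxd13*, *Hoxb13* and *Atp12a* also lay within it, and *Fxyd4* was the gene below, at 4.09 against 4.14 to 4.41. These last 4 genes were at or below the olfactory receptor gauge in all 6 arrays. The mean of the list was 6.07 against 4.50 to 4.87.

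**Figure D3:**
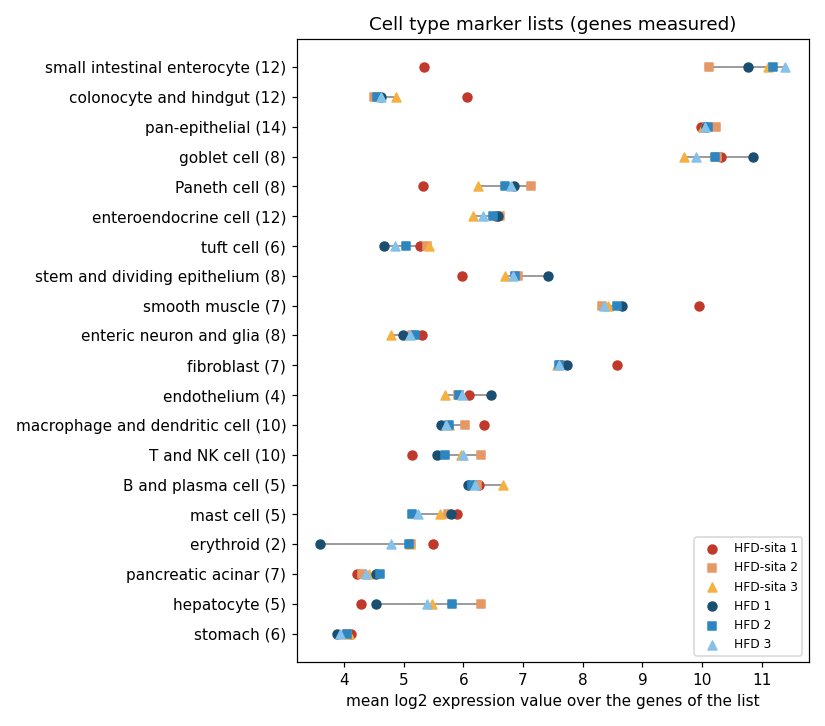
Mean log2 expression value (horizontal axis) of the measured genes of each cell type list in each of the 6 arrays, with the number of genes in parentheses and a line over the range of the other 5 arrays. The small intestinal enterocyte list is at 5.34 in HFD-sitagliptin replicate 1 against 10.12 to 11.39, and the pan-epithelial list is at 9.99 against 10.01 to 10.24.

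Some, but not all, marker lists of the gut wall differed as well. All 7 measured smooth muscle genes lay above the other arrays, with a mean of 9.94 against 8.32 to 8.66, and *Actg2*, the enteric smooth muscle actin, was at 12.01 against 9.52 to 10.49. Of 7 fibroblast genes 5 lay above, with a mean of 8.57 against 7.57 to 7.74, and of 10 macrophage and dendritic cell genes 5 lay above, with a mean of 6.35 against 5.63 to 6.02. All 4 measured endothelium genes lay within the range of the other arrays, with a mean of 6.10 against 5.70 to 6.47. Of 8 measured enteric neuron and glia genes, 3 lay above and 5 within, with a mean of 5.31 against 4.79 to 5.20. T and NK cell genes had a mean of 5.14 against 5.55 to 6.29, with 4 of 10 below all other arrays. Among stem and dividing epithelium genes, *Olfm4*, a crypt gene of the small intestine, met the rule at 5.72 against 8.03 to 9.78, and *Mki67*, a gene of dividing cells, was at 7.53 against 8.95 to 10.06. Of 8 measured Paneth cell markers, 4 lay below all other arrays, 1 above and 3 within their range. *Defa24* and *Defa8* met the rule, *Mmp7*, the enzyme that activates defensins in mice, was at 3.81 against 5.15 to 8.61, and *Itln1*, an intelectin, was at 11.53 against 7.49 to 10.05. Of 12 enteroendocrine cell genes, 3 lay below all other arrays, 4 above and 5 within their range. Their mean of 6.54 lay within the 6.16 to 6.61 of the other arrays. Among the hormones of that list, *Gcg*, which encodes proglucagon, was at 9.59 against 7.05 to 9.27. *Nts*, neurotensin, was at 3.13 against 4.41 to 9.08. Stomach and pancreatic acinar lists had means of at most 4.60 in all 6 arrays. Among the cell type lists, the small intestinal enterocyte list thus had the lowest mean relative to the other arrays, while the pan-epithelial mean differed from theirs by little and *Car1* and *Hoxa13* were high. The part that the stretch of gut sampled, the share of muscle in the sample or the treatment had in this was not tested.

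Members outside these lists were sorted by role after their values were seen. Several encode other known products of the small intestine. *Guca2b*, uroguanylin, was at 7.33 against 11.22 to 12.004, *Ccl25*, the chemokine that draws lymphocytes to the small intestine, was at 5.10 against 8.70 to 9.56, and *Slc6a4*, the serotonin transporter, was at 6.18 against 8.49 to 8.75. *Dnase1*, a secreted nuclease, was at 4.39 against 9.96 to 11.60, and *Hnmt*, which inactivates histamine, was at 2.94 against 8.61 to 9.74. *Fga*, a fibrinogen chain of the hepatocyte list, was at 3.23 against 6.35 to 7.43. For *Alb*, albumin, the level of 6.35 was within the 4.78 to 9.06 of the other arrays. The full sorting gave 30 lipid genes, 15 genes of vitamin, nucleoside and ion uptake, 14 of drug, steroid and amine metabolism, 12 of defence, 10 each of peptide digestion and of amino acid transport, 6 of sugar, 3 of nitrogen metabolism, 2 transcription factors and 36 with other roles or no role given. The median gap was 5.54 for the 3 nitrogen genes and between 2.71 and 3.30 for the other groups.

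Within the other 5 arrays the members were far from uniform. The range over these arrays had a median of 1.09 and ran from 0.21 for *Otc* to 4.34 for *Reg1a*. It was under 1 for 62 genes and over 2 for 20 genes. HFD-sitagliptin replicate 2 was the lowest of the 5 for 59 genes, HFD replicate 1 for 42 and HFD-sitagliptin replicate 3 for 33, while HFD replicates 2 and 3 were lowest for 1 and 3 genes. HFD replicate 2 was the highest for 53 genes.

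The members with the widest ranges varied in opposite orders. *Slc5a12*, a sodium-coupled lactate transporter, was at 3.56 in HFD-sitagliptin replicate 1, at 10.73 and 6.73 in replicates 2 and 3, and at 7.74, 10.76 and 10.19 in the HFD arrays. *Naaladl1*, a brush border peptidase, had 4.20, then 10.38 and 6.95, and then 8.09, 9.64 and 8.97. Both were high in HFD-sitagliptin replicate 2 and low in replicate 3. *Reg1a*, a secreted lectin of the Reg family, had 2.48, then 5.05 and 9.27, and then 9.39, 7.25 and 7.76. *Lypd8l2*, a relative of the secreted Lypd8 proteins, had 4.32, then 9.06 and 12.82, and then 12.53, 11.68 and 11.50. These genes and *Gsta5* (7.51 in HFD-sitagliptin replicate 2 against 11.13 in replicate 3) were lowest of the 5 in HFD-sitagliptin replicate 2. *Fabp6*, the bile acid binding protein of the ileum and no member of the rule, was at 3.61 in HFD-sitagliptin replicate 1, at 13.16 and 3.77 in replicates 2 and 3, and at 7.36, 12.62 and 6.03 in the HFD arrays. The arrays with high *Fabp6* were thus the second replicate of each group. 22 members (15.9%) were higher in both of these arrays than in the other 3, beside 11.7% of all genes, and 15 members (10.9%) were lower in both, beside 14.004% of all genes. The part of the position along the gut in these ranges was not tested.

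**Figure D4:**
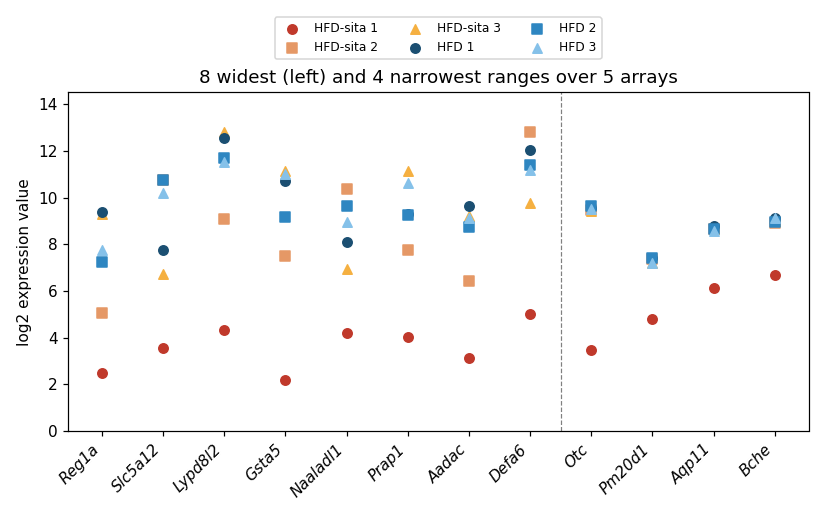
Log2 expression values (vertical axis) of the 8 members with the widest and the 4 with the narrowest range over the 5 arrays other than HFD-sitagliptin replicate 1, with 1 point per array. *Reg1a* spans 4.34 over those arrays and *Otc* spans 0.21.

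The study's threshold for a difference between the groups was a 1.5-fold change together with an unadjusted p of less than 0.05, and the members were read against it. With all 6 arrays, the median log2 fold change of the members (HFD-sitagliptin minus HFD) was -1.46, beside 0.01 for all genes, and 137 of 138 were negative. The rule fixed this direction, since it chose the genes by a low array of 1 group. The rule also set that array far below the rest of its own group. A large standard error and few calls with all 6 arrays were therefore built into the choice of genes. Of the members, 110 were below -1 and only *Anxa13*, an annexin of intestinal epithelium (-2.27, SE 0.89), passed the threshold. 0 members passed it as higher. In all, 1.3% of genes passed it as lower. The median standard error of the members was 0.95, against 0.29 in the fit without HFD-sitagliptin replicate 1. Of all genes, 2.01% passed the threshold in either direction. With the replicate number as a block, 17 members passed, all lower, beside 2.62% of all genes. The count of members was 28 without HFD-sitagliptin replicate 3, beside 4.84% of all genes, and 12 without replicate 2, beside 2.48%. It was 0 without any one of HFD replicates 1, 2 and 3, where 1.32%, 2.58% and 2.68% of all genes passed.

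Without HFD-sitagliptin replicate 1, 2 arrays were compared with 3, on values that had entered the rule only through the lowest of them. The median log2 fold change of the members was -0.23, beside -0.01 for all genes. 102 members were negative and 36 positive, and 51.4% of all genes were negative. The fold change was smaller than 1.5 in either direction for 110 members. *Dpp4* differed by -0.03 (SE 0.17) and *Mttp* by -0.20 (SE 0.21), both less than 1.5 times their error.

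In this comparison 6 members passed the threshold as lower, beside 0.903% of all genes, and 3 as higher, beside 0.732%. *Si* was lower by -0.66 (SE 0.22), with 11.39 and 11.94 in the HFD-sitagliptin arrays and 12.07 to 12.49 in the HFD arrays. *Creb3l3* (-0.71, SE 0.19), *Anxa13* (-1.19, SE 0.33) and *Fga* (-0.66, SE 0.22) were lower as well, and so were *Ano6*, a phospholipid scramblase (-0.64, SE 0.24), and *Slc36a1*, a proton-coupled amino acid transporter (-0.67, SE 0.27). The higher members were *Slc13a1*, a sulfate transporter (1.55, SE 0.38), *2010106E10Rikl* (0.94, SE 0.27) and *Abhd3*, a phospholipase (1.03, SE 0.33). *Slc13a1* was at 11.56 and 10.56 in the HFD-sitagliptin arrays and at 9.15, 10.002 and 9.39 in the HFD arrays, with 6.90 in replicate 1. After Benjamini-Hochberg adjustment over all genes, limma's adjusted p was 0.843 for each of the 9, and 0 genes had an adjusted p under 0.05, while 912 genes had an unadjusted p under 0.05 by limma and 729 by the methods' t-test. With the replicate number as a block, where HFD replicate 1 has no partner and drops out of the difference, 23 members were lower and 3 higher. Of all genes, 1.94% passed in that fit, against 1.635% without the block. The calls changed with the arrays used. Without HFD replicate 1, 15 members passed, beside 1.25% of all genes, and 7 of the 9 were among them. Without HFD replicate 2 the count was 7, beside 2.33% of all genes, with 5 of the 9. Without HFD replicate 3 it was 5, beside 2.395%, with 4 of the 9. Leaving out HFD-sitagliptin replicate 2 or 3 as well left 1 array in that group, so no count is given for those fits. The methods' t-test called 1 of the 9, *Creb3l3*.

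**Figure D5:**
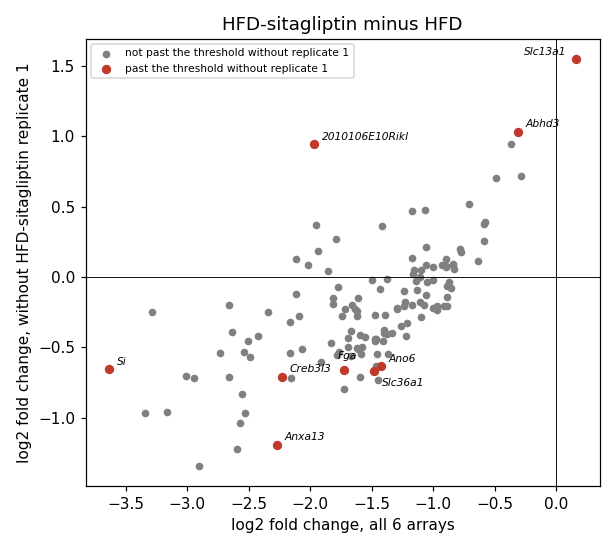
Log2 fold change (HFD-sitagliptin minus HFD) of the 138 members with all 6 arrays (horizontal axis) and without HFD-sitagliptin replicate 1 (vertical axis), with the 9 members past the threshold in the second fit in red. The median is -1.46 along the first axis and -0.23 along the second.

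Of the 138 members, 106 had a promoter in the RefSeq table used here, and the 250 bases before the start were searched on both strands for 5 motifs. The Hnf4 motif CAAAGTCCA, named for the nuclear receptors Hnf4a and Hnf4g, was in 6 of 106 member promoters (5.66%) and in 0.40% of 14503 promoters. The GATA motif AGATAA was in 16.04% against 8.98%, the Cdx motif TTTATNG in 15.1% against 9.48%, and TATAAA in 14.2% against 11.9%. The Hnf1 motif was in 0 member promoters and in 43 of all. A match is a run of letters and does not show that a factor binds there. A TATAAA can overlap a Cdx match on the other strand, so these counts are not separate.

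The 6 promoters with the Hnf4 motif are shown because *Hnf4g* was itself a member. They belong to *Alpi* (chr9:95224781-95225030, minus strand), *Cps1* (chr9:76063613-76063862, plus strand), *Pdzk1*, a scaffold protein of the brush border (chr2:187064745-187064994, plus strand), *Sec16b*, a protein of endoplasmic reticulum exit sites (chr13:72217583-72217832, plus strand), *Slc3a1* (chr6:15394750-15394999, minus strand) and *Smlr1*, whose role is not given here (chr1:21656470-21656719, plus strand). The build is GRCr8, each sequence reads toward its gene, and the capitals mark the motif, printed as its reverse complement where it lies on the minus strand of the gene.
Alpi: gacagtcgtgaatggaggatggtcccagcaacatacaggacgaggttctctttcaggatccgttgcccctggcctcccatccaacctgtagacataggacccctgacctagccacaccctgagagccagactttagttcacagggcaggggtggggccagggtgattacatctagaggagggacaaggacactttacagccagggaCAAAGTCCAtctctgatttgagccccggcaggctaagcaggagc
Cps1: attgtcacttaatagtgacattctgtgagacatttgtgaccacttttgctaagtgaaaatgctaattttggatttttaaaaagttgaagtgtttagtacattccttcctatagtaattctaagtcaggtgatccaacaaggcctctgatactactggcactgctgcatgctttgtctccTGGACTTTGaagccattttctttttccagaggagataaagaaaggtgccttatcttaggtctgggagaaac
Pdzk1: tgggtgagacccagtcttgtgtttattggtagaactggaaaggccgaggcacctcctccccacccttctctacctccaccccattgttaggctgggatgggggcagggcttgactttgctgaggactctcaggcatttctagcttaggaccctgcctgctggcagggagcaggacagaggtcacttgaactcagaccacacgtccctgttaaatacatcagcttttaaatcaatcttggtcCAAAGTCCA
Sec16b: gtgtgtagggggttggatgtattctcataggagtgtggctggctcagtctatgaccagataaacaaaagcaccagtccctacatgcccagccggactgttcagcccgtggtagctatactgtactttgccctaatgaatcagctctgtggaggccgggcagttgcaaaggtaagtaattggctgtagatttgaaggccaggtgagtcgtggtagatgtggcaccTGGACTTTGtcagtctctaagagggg
Slc3a1: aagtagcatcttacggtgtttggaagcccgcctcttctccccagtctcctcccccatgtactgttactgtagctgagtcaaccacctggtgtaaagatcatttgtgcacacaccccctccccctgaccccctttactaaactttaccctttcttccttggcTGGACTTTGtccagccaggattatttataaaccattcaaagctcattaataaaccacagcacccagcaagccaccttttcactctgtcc
Smlr1: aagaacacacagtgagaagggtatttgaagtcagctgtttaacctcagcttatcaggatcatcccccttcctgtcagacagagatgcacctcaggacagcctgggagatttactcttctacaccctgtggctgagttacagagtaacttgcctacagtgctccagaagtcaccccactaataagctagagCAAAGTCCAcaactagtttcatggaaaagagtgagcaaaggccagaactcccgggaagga

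Counted back from the start, the matches lay between position -89 in *Slc3a1* and position -1 in *Pdzk1*. The genes had gaps from 2.36 for *Sec16b* to 5.54 for *Cps1*. *Pdzk1* was at 4.06 against 7.52 to 8.78 and *Smlr1* at 4.03 against 7.48 to 8.0004.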

How the data were processed

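Total RNA of the intestine of 1 male pup per array was hybridised to Affymetrix Rat Gene 2.0 ST arrays. The labels name a mirVana kit for the RNA and the methods name TRIzol. The authors normalized the scans to log2 values in GeneSpring with an algorithm not given in the sources used here, and the log2 values were used as the authors deposited them. The log2 scale was inferred from their highest value of 13.55. Their normalization could have reduced differences between whole arrays. Of 36685 rows, 18511 carry 1 gene symbol, 575 several and 17599 none in the platform table. For 291 genes with more than 1 row, the row with the highest mean was kept, which left 18166 genes, and no member had another row.

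Groups were taken from the labels. They were compared in limma 3.58.1 (R 4.3.3) across all genes, once over 6 arrays and once over the 5 left when HFD-sitagliptin replicate 1 was dropped, at a fold change of 1.5 and an unadjusted p under 0.05, with Benjamini-Hochberg adjustment. The code was tested on simulated data. The methods state that 1 male per litter was selected, and the number of arrays limits the precision. The members, gene lists and tests were chosen with earlier results of these data known. Genes were named by gap, role list, p, range and marker level, and *Fabp1*, *Fabp6*, *Slc2a2*, *Vil1*, *Gata4*, *Cdx2*, *Hnf4a*, *Ass1*, *Trpv6*, *Nts*, *Mmp7*, *Alb*, the smaller colon markers and the members outside the lists were added after their values were seen. After subtraction of group means, arrays of the same replicate number correlated across genes at 0.15, 0.28 and 0.15, and other pairs at -0.24 to 0.02. The deviations of each group cancel out for each gene, so positive values for some pairs push those of other pairs down. The contrast between them is therefore partly built in. Any pairing by replicate number was read from these values alone. The main fits did not use it, and it entered only as the replicate block of an alternative fit. Alternatives were quantile normalization, centring of each array, other gaps, a filter on low values, the block, trend moderation, the methods' t-test, other fold changes and leaving out arrays. All 138 members matched RefSeq (GRCr8) by gene ID, and 106 had a promoter.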

Additional observations from a re-analysis of the deposited data

How the results depend on the processing

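The number of genes chosen was 136 after quantile normalization, 135 after centring each array on its median and between 138 and 171 when 1 of the other 5 arrays was left out. It was 383 with a gap of at least 1 and 67 with a gap of at least 3. With all arrays, the 1 member past the threshold became 17 with the replicate block, 4 after centring and 0 by the methods' t-test. It became between 0 and 28 when 1 array was left out, beside 1.32% to 4.84% of all genes. Of all genes, 2.01% passed in the main fit, 2.62% with the block, 2.59% after centring and 0.87% by the t-test. Without HFD-sitagliptin replicate 1, the 9 members became 26 with the replicate block, 16 after centring, 1 by the methods' t-test and 3 at a fold change of at least 2, and between 5 and 30 when a further array was left out. After centring, 13 of the 16 were lower, against 6 of 9. Of the 9 members, all were still called after centring and with the replicate block, but 1 by the methods' t-test. Among them, 4 were called without HFD replicate 3, 5 without HFD replicate 2 and 7 without HFD replicate 1. The median log2 fold change without HFD-sitagliptin replicate 1, -0.23, stayed between -0.30 and -0.13 in every alternative run, with -0.30 under the replicate block. The value of -0.13 came from the fit without HFD-sitagliptin replicate 2, which left 1 array in that group. When that array was left out, 35 of the 138 members turned from a negative to a positive fold change, the highest being 1.03. Among the genes with the widest gaps and those past the threshold without it, these were *2010106E10Rikl* from -1.97 to 0.94, *Defa24* from -1.96 to 0.37 and *Abhd3* from -0.31 to 1.03. Because the rule chose genes that were lowest in HFD-sitagliptin replicate 1, leaving it out raised the fold change of every member. The upward direction of these changes was thus fixed by the rule. The cause of the other changes above was not tested.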

Other observations

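Outside the named genes, 27 of 17599 rows with no symbol (0.153%) and 1 of 575 rows with several symbols (0.174%) had a value in HFD-sitagliptin replicate 1 at least 2 below the lowest of the other arrays. A further 245 named genes had a gap between 1 and 2, and 68 genes were at least 2 above the highest of the other arrays. The 3 genes that met the same rule in HFD-sitagliptin replicate 2 were *Abo3*, *LOC690275* and *RGD1563891*, and the 5 in replicate 3 were *Cmahp*, *Ly6al*, *Osr2*, *Spink1* and *Tmigd1*. None of these was among the 138 genes.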
